A study of Mus musculus with 12 samples.

Results

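Among the ΔCdk8 embryonic stem cell (ESC) clones 8, 11 and 15, clones 8 and 15 had low Trp53 transcript and clone 11 kept it. The 4 libraries of clones 8 and 15 were compared with the 2 libraries of clone 11, so 6 of the 12 libraries of the series were used, and the 6 wild-type libraries are given beside them. The 2 sets were chosen by the Trp53 TPM measured in these same libraries. The comparison between them is therefore a description without p-values.

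Wild-type cells were a polyclonal population of HATX3 ESCs, a diploid line of haploid origin in which doxycycline switches on Xist. The ΔCdk8 clones were derived from it by Cas9 cutting with a pair of guides around the Cdk8 start codon, which left a small deletion, and each clone is a single line. Wild-type cells (replicates 1, 2 and 3) and each clone were sequenced uninduced and after 48 h of Xist expression with 1 µg/ml doxycycline. All cells were grown in serum with leukaemia inhibitory factor, and maintenance cultures also contained inhibitors of Gsk3β and Mek1/2. Because clone 11 is 1 clone, a low Trp53 level in clones 8 and 15 and any other feature of clone 11 cannot be told apart in this design. The 2 libraries of a clone came from the same line, and the spread between them is not a spread between independent clones.

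p53, the product of Trp53, is a transcription factor that is stabilised by DNA damage and other stress and activates genes for cell cycle arrest, apoptosis, DNA repair and its own degradation. Mdm2 is a p53 target and at the same time the ubiquitin ligase that degrades p53, so that the pathway is a feedback loop. Mouse ESCs express Trp53 at a high level, and cells that lose p53 function are known to gain a growth advantage in culture. ESC lines also gain or lose whole chromosomes during culture, which shifts the transcripts of the affected chromosome together.

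Between 28525088 and 60798578 reads were counted on genes in the 6 ΔCdk8 libraries, and between 22170087 and 59770613 in wild-type libraries. The ESC markers Pou5f1, Sox2, Nanog, Zfp42 and Esrrb were all present, with a summed level of 1393 to 2307 TPM (a transcript level per exon length, scaled to the same sum in each library) in clones 8 and 15, 2667 to 2786 TPM in clone 11 and 1680 to 2259 TPM in wild-type libraries. The targeted gene Cdk8 was at 34.4 and 33.4 TPM in clone 8, 56.8 and 57.8 TPM in clone 11 and 85.3 and 84.9 TPM in clone 15, uninduced and induced. Wild-type libraries lay between 51.5 and 74.2 TPM. TPM uses the reads of all exons, most of whose length lies outside the deletion, so the level does not test the mutation. By reads over the whole gene, introns included, clone 15 was lowest instead of highest. Uninduced, it had 19816 of 43427118 reads, against 34355 of 59240455 in clone 8 and 24878 of 45825724 in clone 11. Xist itself was not analysed here, and the median change of X-linked genes on induction was −0.63 in clones 8 and 15 and −0.55 in clone 11 (log2, relative to autosomes, 417 genes), against −1.36 to −1.16 in wild-type cultures.

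Trp53 is annotated at chr11:69580359-69591873 of GRCm38, plus strand. It was at 30.1 and 27.2 TPM in clone 8 and at 29.7 and 19.9 TPM in clone 15, uninduced and induced. In clone 11 it was at 527 and 511 TPM, the uninduced value above the uninduced wild-type libraries (381 to 486 TPM) and the induced value just below the induced ones (515 to 675 TPM). The log2 fold change, here and below clones 8 and 15 minus clone 11, was −4.08, and this level is what the sets were chosen by. Where 4 values of clones 8 and 15 are listed, clone 8 comes first and uninduced before induced. Reads in exons and introns of the gene differed by unequal amounts. Exon reads were 20.7 times more abundant in clone 11 than in clones 8 and 15 (388.7 and 18.8 RPM, reads scaled to the total of each library), whereas intron reads were 2.79 times more abundant (22.2 and 7.98 RPM). Introns therefore held 27.1% and 26.0% of the Trp53 reads in clone 8 and 27.9% and 40.1% in clone 15, against 5.11% and 5.71% in clone 11 and 4.17% to 8.02% in wild-type libraries. Wrap53 starts next to Trp53 on the opposite strand, and whether the counting used the strand is not given in the sources used here, so the origin of the remaining intron reads was not tested.

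Genes next to Trp53 did not follow it as a block. Of the 8 expressed genes on either side, 16 in all, 4 were called lower and 1 higher, where a call means a change of more than 2-fold with no overlap between the libraries of the 2 sets. The background of this rule over all 15298 genes tested was 7.5% lower and 10.8% higher, and the median of the 16 genes was −0.49 on the log2 scale. Wrap53, a telomerase cofactor gene, had a log2 fold change of −0.43. Atp1b2, a subunit of the sodium pump and the next expressed gene downstream, had the largest change (−1.82), at 2.82, 4.93, 2.15 and 3.15 TPM in clones 8 and 15 and at 9.12 and 12.5 TPM in clone 11. Sat2, a relative of spermidine acetyltransferase, was the gene called higher (1.18).

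Target genes of p53 were mostly lower in clones 8 and 15. Of 42 genes listed, 41 were tested, and 23 were called lower and 0 higher, beside 7.5% and 10.8% of all genes. Their median log2 fold change was −1.22, beside 0.03 over all genes. Outside chromosomes 3, 6, 14 and X, 21 of 35 were called lower, with a median of −1.22. With DESeq2 the number called higher was also 0, and with exon reads, unique reads or scaling on the other chromosomes Cyfip2 was called higher.

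**Figure D1:**
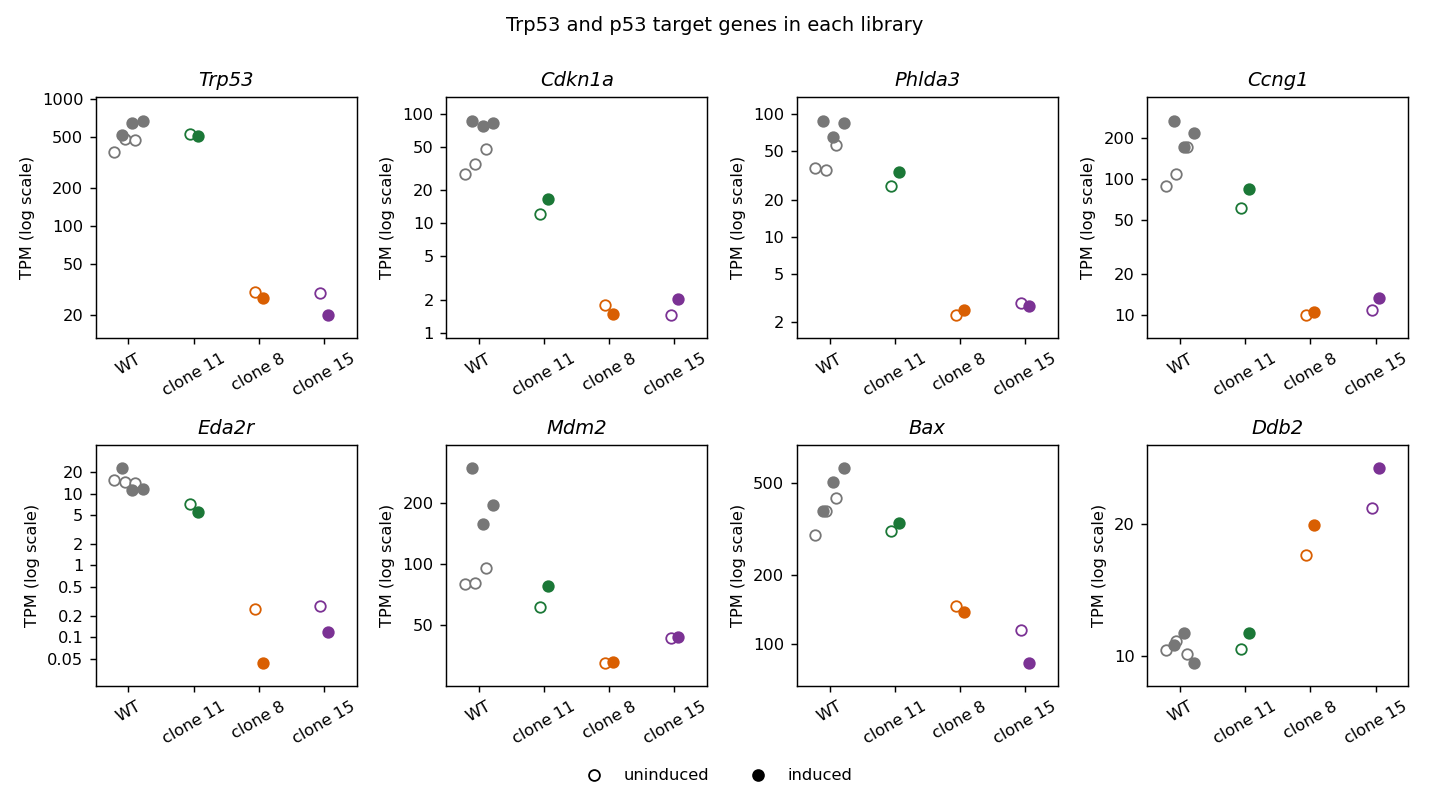
Level of Trp53 and 7 p53 target genes in each library (TPM, log scale) for wild-type replicates 1 to 3 (left to right) and clones 11, 8 and 15; open points are uninduced and filled points induced libraries. Trp53 is between 19.9 and 30.1 TPM in clones 8 and 15 and between 381 and 675 TPM elsewhere, and Ddb2 is a target with the opposite order.

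The cell cycle inhibitor Cdkn1a (p21) had no overlap between the sets. It was at 1.80 and 1.48 TPM in clone 8 and 1.45 and 2.03 TPM in clone 15, against 12.1 and 16.6 TPM in clone 11 (log2 fold change −3.33). Wild-type libraries had 28.4 to 87.0 TPM, so that clone 11 was also below them. Phlda3, an inhibitor of Akt signalling, was at 2.29, 2.53, 2.85 and 2.74 TPM in clones 8 and 15 and at 25.7 and 33.4 TPM in clone 11 (−3.73). Ccng1, cyclin G1, was at 9.96 to 13.3 TPM in clones 8 and 15 and at 61.4 and 84.1 TPM in clone 11 (−2.94). The X-linked receptor gene Eda2r had the largest change of the list (−5.75), with 0.0445 to 0.272 TPM in clones 8 and 15 and 7.13 and 5.57 TPM in clone 11. For each of these 4 genes every library of clones 8 and 15 was below both libraries of clone 11 and below every wild-type library.

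Listed targets with a role in apoptosis were divided between called and not called. Bax, a pore-forming effector of mitochondrial apoptosis, was at 146 and 138 TPM in clone 8, 115 and 82.9 TPM in clone 15 and 310 and 335 TPM in clone 11 (−1.62). Bbc3 (Puma), a BH3-only activator, changed by −1.32 and Pidd1, a death domain adaptor, by −1.69. Perp, a membrane protein of p53-dependent apoptosis, changed by −1.60, and Pmaip1 (Noxa), another BH3-only gene, by −0.42, below the 2-fold limit. Apaf1, the scaffold of the apoptosome, overlapped between the sets (−0.30), as did Tnfrsf10b, a death receptor gene (0.16). Mdm2 (−1.03), Trp53inp1 (−1.86), Sesn2 (−1.30) and the kinase Plk2 (−1.81) were also called lower. Mdm2 was at 32.5, 32.6, 43.1 and 43.3 TPM in clones 8 and 15, at 61.1 and 77.6 TPM in clone 11 and at 78.9 to 296 TPM in wild-type cells.

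**Figure D2:**
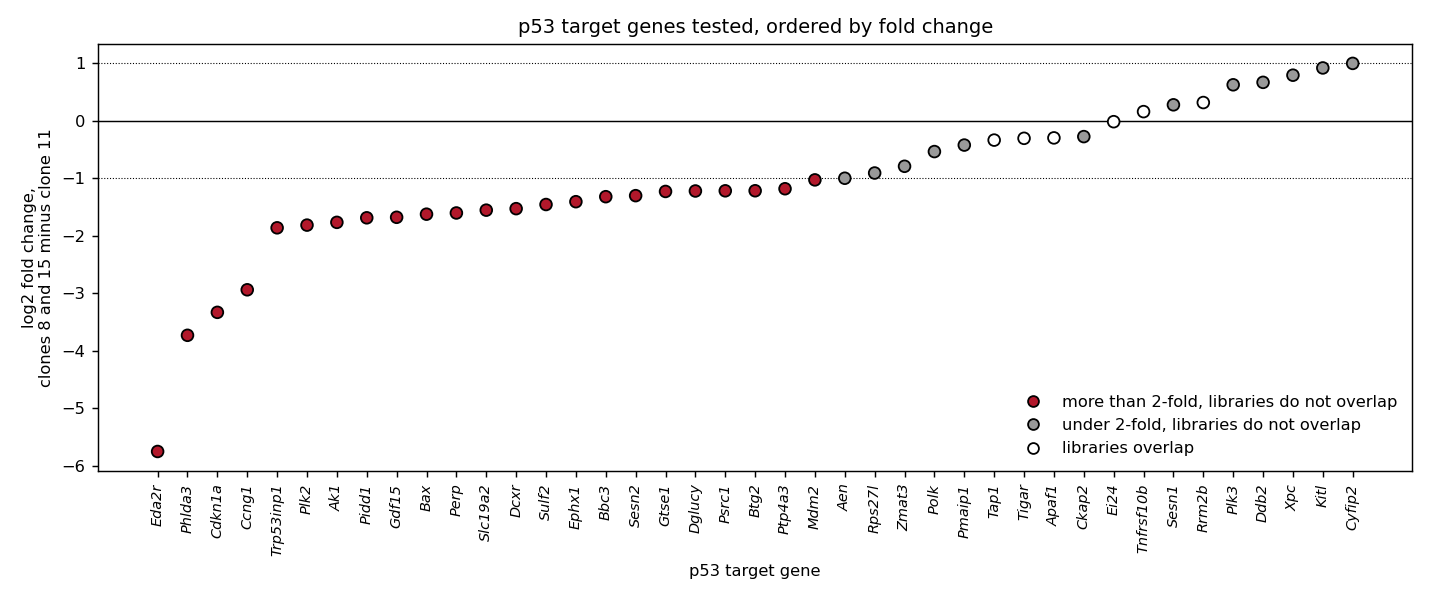
Log2 fold change (clones 8 and 15 minus clone 11) of the 41 p53 target genes tested, ordered by size. Red points, 23 genes, changed by more than 2-fold with no overlap between libraries, grey points did not overlap but changed by less, and the libraries of white points overlapped; dotted lines mark a 2-fold change.

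Not all listed targets were lower. In 6 genes all 4 libraries of clones 8 and 15 were above both of clone 11, although none reached 2-fold, and over all genes 54.5% did not overlap in either direction. These were Sesn1 (0.28), Plk3 (0.62), the nucleotide excision repair genes Ddb2 (0.67) and Xpc (0.79), Kitl (0.92) and Cyfip2 (1.00). Ddb2 was at 17.0, 19.9, 21.7 and 26.8 TPM in clones 8 and 15, at 10.4 and 11.3 TPM in clone 11 and at 9.66 to 11.3 TPM in wild-type cells, so the low Trp53 clones were above all other libraries. Xpc lies on chromosome 6, whose genes were lower in clone 11 as a whole. A further 6 genes were lower in all 4 libraries by less than 2-fold, among them Aen, Zmat3 and Rps27l, and the libraries of 6 others overlapped.

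Against wild-type libraries of the same condition, by scaled gene reads, 19 of the 23 genes called lower were below all of them in clones 8 and 15 and not above all of them in clone 11, beside 36.8% of all genes called lower. Clone 11 itself was below every wild-type library in both conditions for 21 of the 41 targets, among them Cdkn1a, Mdm2, Ccng1, Phlda3 and Eda2r, and above for 3. This compares with 16.5% and 18.3% of all genes. Clone 8 was below for 32 targets (24.4% of all genes) and clone 15 for 31 (26.8%). For the 5 genes named here clone 11, with Trp53 near the wild-type level, thus lay between the other clones and wild type.

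The promoters of 3 target genes are shown because they hold the letters of the p53 response element upstream of a RefSeq start, and their changes differed in size. The element consists of 2 adjacent repeats, and each repeat has a fixed C and G around a pair of A or T bases, with purines before and pyrimidines after. Up to 2 mismatches outside the cores were allowed and no bases between the repeats. The letters read the same on both strands. The sequences are the 250 bases before the start on the strand of the gene, from RefSeq on GRCm38.p6, with the matched 20 bases in capitals. Of the 42 listed genes, 33 had a promoter entry, and 3 of their 47 promoters held a match (6.38%), beside 44 of all 32851 promoters of the same length (0.134%).
Cdkn1a, chr17:29090729-29090978, forward strand: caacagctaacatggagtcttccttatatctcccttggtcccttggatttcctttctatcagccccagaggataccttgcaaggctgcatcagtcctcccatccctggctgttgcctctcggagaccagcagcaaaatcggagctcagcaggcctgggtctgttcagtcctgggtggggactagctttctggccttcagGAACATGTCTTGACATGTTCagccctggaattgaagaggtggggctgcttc
Rps27l, chr9:66946163-66946412, forward strand: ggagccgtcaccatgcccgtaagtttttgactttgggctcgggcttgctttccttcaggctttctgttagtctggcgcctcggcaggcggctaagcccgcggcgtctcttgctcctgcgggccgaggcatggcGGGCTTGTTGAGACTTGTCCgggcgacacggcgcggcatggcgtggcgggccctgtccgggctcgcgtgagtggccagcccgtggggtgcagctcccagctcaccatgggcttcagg
Ckap2, chr8:22185820-22186069, reverse strand: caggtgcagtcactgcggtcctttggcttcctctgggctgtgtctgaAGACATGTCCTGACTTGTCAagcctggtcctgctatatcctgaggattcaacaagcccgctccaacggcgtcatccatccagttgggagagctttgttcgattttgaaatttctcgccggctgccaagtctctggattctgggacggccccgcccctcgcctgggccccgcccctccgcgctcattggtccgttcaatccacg

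The match begins 51 bases before the start in Cdkn1a, 117 in Rps27l and 203 in Ckap2, with 1, 1 and 2 mismatches. The Rps27l gene model used for the counts starts upstream of this window, at 66946086, so that its match lies inside that model. Rps27l, a ribosomal protein gene relative, was at 366, 336, 363 and 374 TPM in clones 8 and 15 and at 589 and 560 TPM in clone 11, a log2 fold change of −0.91 without overlap. Ckap2, a spindle protein gene, had a change of −0.28, with 94.9 to 122.5 TPM against 124.9 and 124.8 TPM in clone 11. The change of Cdkn1a was −3.33, the largest of these. A match is a description of letters, and binding of p53 was not measured.

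Other members of the p53 network changed less than Trp53. Trp73, a paralogue of p53, was called lower (−3.97), at 0 to 0.235 TPM in clones 8 and 15 and 1.45 and 1.43 TPM in clone 11, and wild-type libraries ranged from 0.407 to 9.81 TPM. Apart from Trp53, by which the sets were chosen, Trp73 and Mdm2 were the members called among the 10 tested, beside 7.5% of all genes called lower. The p53 phosphatase Ppm1d (−0.58) and the inhibitor Mdm4 (−0.65) did not reach 2-fold. The kinases Atm and Chek2 and the deubiquitinase Usp7 had log2 fold changes of −0.36, 0.06 and −0.07. Trp63, the third member of the family, was at most 0.0530 TPM in any of these libraries and was not tested.

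The sets were chosen by levels and not by changes on induction, so whether the response to doxycycline differed between them was tested. In a fit of all 12 libraries with edgeR's quasi-likelihood test, 0 of 15988 genes differed in their induction response between clones 8 and 15 and clone 11 (fold change above 2 and adjusted p under 0.01). There were 52 genes with an unadjusted p under 0.05. Clone 11 enters with 1 library per condition and is assumed to vary like the other groups, so that a count of 0 does not show that the responses were alike. DESeq2 also called 0 (56 unadjusted), and so did the fit with the clone or replicate number as a replicate block (326 unadjusted). For Cdkn1a the difference in response was −0.40 with a standard error of 0.36 (log2, replicate block), and for Mdm2 −0.24 with a standard error of 0.33. The median difference over the 42 p53 targets was −0.28 in the blocked fit, beside −0.02 over all genes.

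Most p53 targets were higher after induction in wild-type cells. The median change over 41 targets, on the log2(TPM + 1) scale, was 0.87, 0.67 and 0.54 in wild-type replicates 1, 2 and 3, beside medians of all genes between −0.03 and 0.01. It was 0.31 in clone 11, 0.06 in clone 8 and 0.01 in clone 15. Of the 41 targets, 39, 36 and 34 were higher after induction in the wild-type replicates, 35 in clone 11, and 27 and 22 in clones 8 and 15. In the edgeR fit 4 of 42 targets rose in wild-type cells at a fold change above 2 and adjusted p under 0.01, and 12 with the replicate block, beside 0.225% and 2.28% of all genes. None of them fell in either fit, while 1.27% and 3.43% of all genes did. In clones 8 and 15, and in clone 11, 0 targets rose in either fit (edgeR), and so did 0 of all 15988 genes. Over all genes 25 fell in clones 8 and 15 with the replicate block and 0 without it, and 0 fell in clone 11 in either fit. Unadjusted p-values under 0.05 were found for 7 targets in clones 8 and 15 and 6 in clone 11 with the replicate block, beside 2114 and 948 of all 15988 genes, and for 1 and 0 without it, beside 529 and 212.

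**Figure D3:**
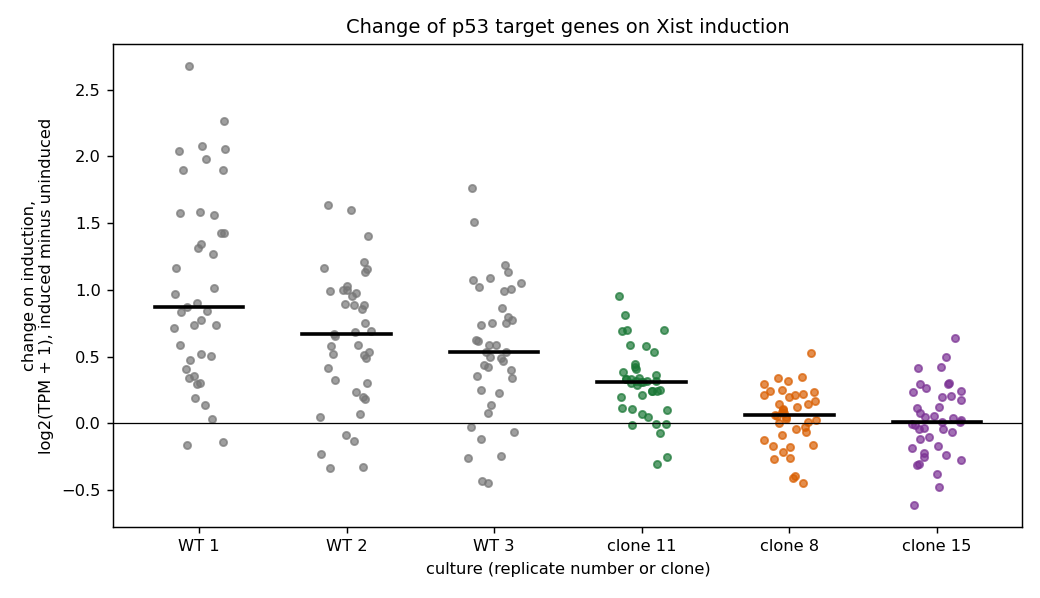
Change on Xist induction of the 41 p53 target genes in each culture (log2(TPM + 1), induced minus uninduced; points, genes; black bars, medians of 0.87, 0.67 and 0.54 for wild-type replicates 1 to 3, 0.31 for clone 11, 0.06 for clone 8 and 0.01 for clone 15). Genes are not independent replicates, and the horizontal jitter carries no value.

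Mdm2 rose in wild-type cells by 1.35 (log2, standard error 0.16, adjusted p = 0.000563, edgeR with replicate block), and its change in clones 8 and 15 was 0.09 with a standard error of 0.19. In clone 11 the change was 0.33 with a standard error of 0.27. The difference between clones 8 and 15 and wild type was −1.26 (adjusted p = 0.0390), and that between clone 11 and wild type −1.02 (adjusted p = 0.299). Over the list, 14 targets had a smaller response in clones 8 and 15 than in wild type with the replicate block, and 0 without it. This is at an adjusted p under 0.05, with unadjusted p-values under 0.05 for 29 and 19 targets, beside 2961 and 812 of all genes. Over all 15988 genes 180 had a lower and 249 a higher response at an adjusted p under 0.05 with the block. For clone 11 the number was 0 with and without the block, with 16 and 3 unadjusted p-values under 0.05, beside 1619 and 374 of all genes. Both differences use the same wild-type libraries, and clone 11 enters with 1 pair of libraries.

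Whole chromosomes set the clones apart. On chromosome 3, 28.6% of 711 tested genes were called higher in clones 8 and 15 and 1.55% lower, with a median log2 fold change of 0.63. On chromosome 6 the shares were 26.1% and 3.45% of 724 genes, with a median of 0.54. On chromosome 14 they were 8.33% and 9.72% of 576 genes, with a median of 0.00, and on the other autosomes 8.95% and 8.09% of 12712 genes, with a median of −0.03. On the X chromosome 14.3% were called higher and 4.46% lower.

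Set against wild type, each of the 3 chromosomes had its own pattern. The median log2 ratio to wild-type TPM of the same condition, relative to the other autosomes, was 0.55 and 0.60 for chromosome 3 in clone 8 and 0.68 and 0.81 in clone 15, uninduced and induced. In clone 11 it was −0.01 and 0.00. As ratios, chromosome 3 genes were at 1.49 in clone 8, 1.67 in clone 15 and 0.994 in clone 11. Between 82.0% and 90.8% of the 557 expressed genes of chromosome 3 were above wild type in clones 8 and 15, so that the shift was not carried by a few genes. Chromosome 6 had medians of −0.55 and −0.54 in clone 11, a ratio of 0.687, while clones 8 and 15 were between −0.07 and 0.08. Chromosome 14 was higher in all 3 clones, between 0.54 and 0.71, with ratios of 1.47 in clone 8 and 1.62 in clone 15 and that of clone 11 between them. Each wild-type library, set against the other wild-type libraries of its condition, lay between −0.08 and 0.14 on these chromosomes. DNA copy number was not measured.

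**Figure D4:**
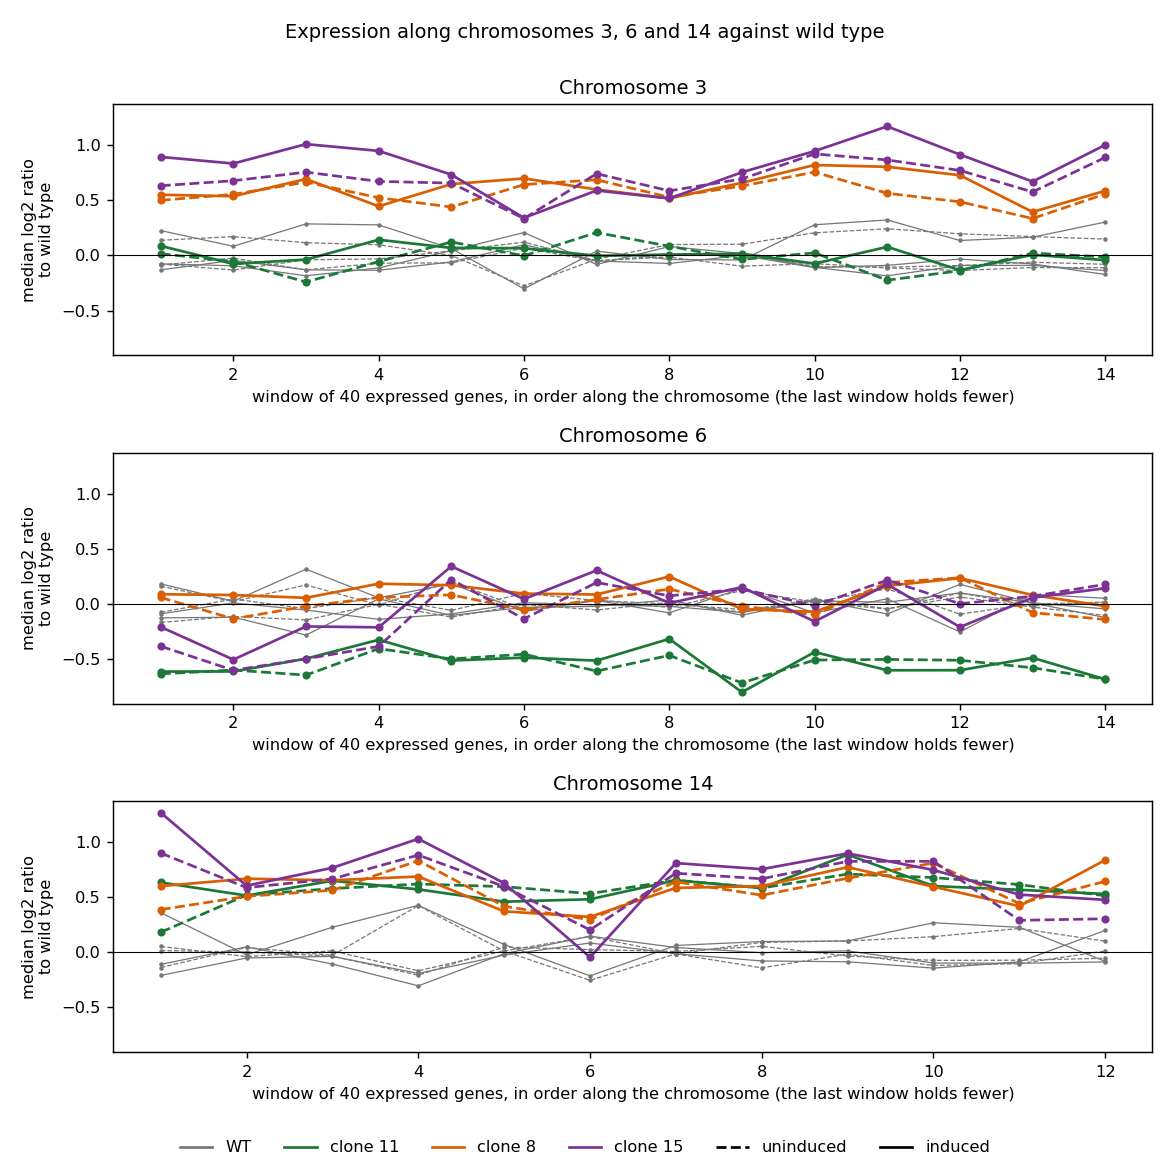
Median log2 ratio of TPM to wild-type libraries of the same condition in consecutive windows of 40 expressed genes along chromosomes 3, 6 and 14 (dashed lines, uninduced; solid lines, induced), relative to the median of the other autosomes. Clones 8 and 15 are raised along all of chromosome 3, clone 11 is lowered along all of chromosome 6, and clone 15 is lowered in the first 4 windows of chromosome 6.

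On chromosomes 3 and 6 the shifts were present in each window. Over 14 windows of chromosome 3 the medians were between 0.34 and 0.82 in clone 8, between 0.34 and 1.17 in clone 15 and between −0.24 and 0.21 in clone 11. On chromosome 6 the 14 windows of clone 11 lay between −0.80 and −0.32. Clone 15 differed within this chromosome. Its first 160 expressed genes, from Vps50 to Fkbp14 (up to 54.6 Mb of GRCm38), had medians of −0.49 uninduced and −0.24 induced, whereas the 390 genes behind them had 0.11 and 0.10. In clone 8 the same proximal genes were at 0.03 and 0.10 and in clone 11 at −0.59 and −0.52. Clones 8 and 15 were thus not the same on chromosome 6, and wild-type libraries ranged from −0.11 to 0.14 in the proximal part.

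Clones 8 and 15 were closer to each other than either was to clone 11. Between them 402 of 15298 genes (2.63%) differed by more than 2-fold in the same direction in both conditions, against 1550 (10.1%) between clones 8 and 11 and 1635 (10.7%) between clones 15 and 11. On the other autosomes the shares were 2.44%, 9.10% and 9.75%. Over all genes 1658 were called higher and 1148 lower in clones 8 and 15, and on the log2(TPM + 1) scale 1008 and 416 were, and on the log2(TPM + 0.1) scale 1873 and 760. The median of all genes was 0.03 in the count fit and 0.13 and 0.18 on these TPM scales. Of the genes called in the count fit, 25.9% of those higher and 23.6% of those lower were below 1 TPM in all 6 libraries. Among the genes called higher 54.0% were above wild type in clones 8 and 15 with clone 11 not below it, and 14.1% were below wild type in clone 11 with clones 8 and 15 not above it. For genes called lower the shares were 36.8% with clones 8 and 15 beyond wild type and 33.4% with clone 11.

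Imprinted genes, which are expressed from the allele of 1 parent, were among the largest differences outside the p53 pathway. The allele named for each gene is general knowledge. Alleles were not measured in these cells, which are of haploid origin. Of 18 tested, 10 were called higher and 4 lower in clones 8 and 15, beside 10.8% and 7.5% of all genes. All 10 called higher are expressed from the paternal allele, and in each of them clone 11 was below every wild-type library of the same condition. Of the 5 maternally expressed genes 3 were called lower (Grb10, Phlda2 and Cdkn1c), and in these clone 11 was above every wild-type library of the same condition. The other 2, Zim1 and Igf2r, were not called. For Zim1 clone 11 was below every wild-type library of the same condition. For Igf2r clone 11 was above them, as were clones 8 and 15. The fourth gene called lower was the paternally expressed Dlk1.

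Peg10, a retrotransposon-derived gene needed in the placenta, was at 552, 351, 458 and 354 TPM in clones 8 and 15 and at 3.90 and 2.67 TPM in clone 11 (log2 fold change 6.80). Its neighbour on chromosome 6, Sgce, was at 22.8 to 26.1 TPM and at 0.2499 and 0.207 TPM (6.48). For both genes wild-type replicate 1 differed from replicates 2 and 3, with 995 and 727 TPM of Peg10 against 17.0 to 38.3 TPM, so the wild-type range spans both levels. The difference of these genes was larger than the shift of chromosome 6 in clone 11. Snrpn, the splicing protein gene of the Prader-Willi region, was at 331 to 381 TPM in clones 8 and 15, 6.27 and 5.11 TPM in clone 11 and 9.39 to 37.5 TPM in wild type, so that clones 8 and 15 stood above all other libraries.

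Several other paternally expressed genes were lowest in clone 11, though Dlk1 and Igf2 were not. Mest, a hydrolase gene, was at 18.3 to 28.9 TPM in clones 8 and 15, 1.71 and 2.24 TPM in clone 11 and 228 to 394 TPM in wild type. Impact, a translational regulator, was at 67.8 to 117 TPM, 5.92 and 5.07 TPM and 120 to 164 TPM in the same order (3.90). Nnat, a small membrane protein gene, was at 18.6 and 13.3 TPM in clone 8, 93.0 and 84.7 TPM in clone 15 and 0.991 and 0.852 TPM in clone 11 (5.54). Peg3 (5.07), Plagl1 (4.63) and Zdbf2 (2.07) had the same direction. All 3 clones were below every wild-type library of the same condition for Mest, Peg3, Impact and Zdbf2, and clone 11 furthest. By gene reads, though not by TPM, this also held for Usp29. The maternally expressed growth inhibitor Grb10 was at 4.29, 4.70, 18.6 and 14.3 TPM in clones 8 and 15, at 171 and 200 TPM in clone 11 and at 32.6 to 108 TPM in wild type (−4.43), and Phlda2, a placental growth regulator, changed by −3.26.

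**Figure D5:**
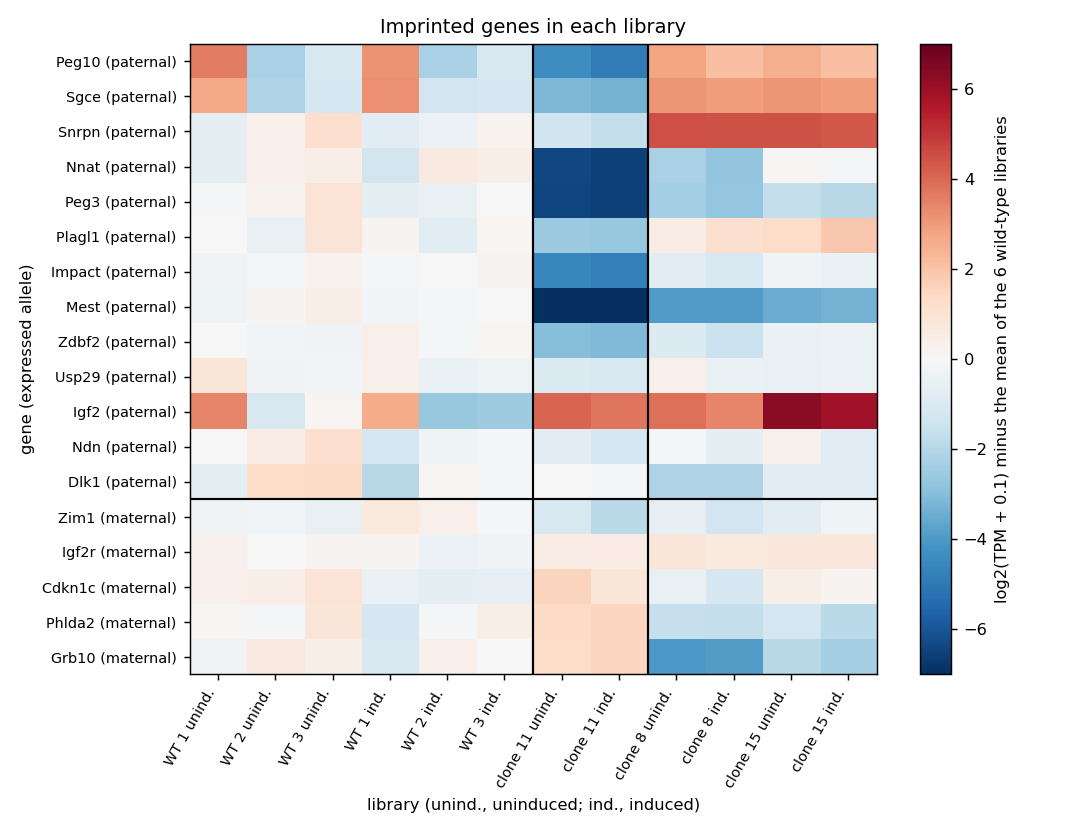
Level of 18 imprinted genes in each library as log2(TPM + 0.1) minus the mean of the 6 wild-type libraries (blue for lower, red for higher). The allele beside each gene is the one it is generally expressed from and was not measured in these cells. Peg10 is at 3.90 and 2.67 TPM in the clone 11 libraries and at 351 to 552 TPM in those of clones 8 and 15, and Grb10 at 171 and 200 TPM against 4.29 to 18.6 TPM.

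Of 8 core pluripotency factors 4 were called lower in clones 8 and 15 and 0 higher, beside 7.5% and 10.8% of all genes. Pou5f1, the Oct4 gene, was at 1126 and 1280.0 TPM in clone 8, 713 and 684.5 TPM in clone 15 and 1779 and 1757 TPM in clone 11 (−1.11), and wild-type libraries were between 915 and 1372 TPM. Sall4 (−1.54), Utf1 (−1.24) and Trim28 (−1.25) were called as well, and Sox2 was not (−0.22). Of 18 naive markers 5 were called lower and 1 higher, and 12 were not called, among them Nanog (−0.32) and Esrrb (−0.28). Klf2, a naive state factor, was at 22.9, 16.6, 13.2 and 8.87 TPM in clones 8 and 15 and at 84.1 and 77.4 TPM in clone 11, above the wild-type range of 12.3 to 56.8 TPM. Nr0b1 (−2.56), Gbx2 (−2.85), Prdm14 (−1.35) and Fgf4 (−1.01) were the others, and Dppa3 on chromosome 6 was higher (1.22). Clone 11 was above all wild-type libraries for Nr0b1 (108 and 87.8 against 23.5 to 50.4 TPM) and Gbx2 (42.4 and 41.2 against 6.95 to 37.9 TPM). Prdm14 was at 2.37 to 7.70 TPM in clones 8 and 15 and at 12.5 and 10.8 TPM in clone 11. Wild-type libraries had 0.697 to 2.75 TPM of it. For Fgf4 clones 8 and 15 (100 to 124 TPM) were below wild type (143 to 200 TPM).

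Of 10 genes of primed pluripotency and the epiblast 5 were called lower and 0 higher, beside 7.5% and 10.8% of all genes. Foxd3, a factor of the transition from the naive state, was at 0.497 to 1.25 TPM in clones 8 and 15 and at 14.7 and 11.1 TPM in clone 11 (−4.07). Otx2, Sox3, Fgf5 and Pou3f1 followed with −1.43, −2.72, −2.24 and −1.02. Fgf5 and Sox3 were below 2 TPM in all 6 libraries. With exon reads 4 naive and 3 primed genes were called lower, and on the log2(TPM + 1) scale 4 and 2.

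Of 12 trophoblast markers 6 were called higher and 0 lower, beside 10.8% and 7.5% of all genes. The keratin genes Krt8 and Krt18 were at 51.7 to 177 and 106 to 320 TPM in clones 8 and 15 and at 22.2 and 22.3 and 35.7 and 30.3 TPM in clone 11, with log2 fold changes of 1.96 and 2.39. Wild-type libraries had 8.80 to 60.4 TPM of Krt8 and 5.18 to 102 TPM of Krt18, highest in replicate 1, which reached the Krt8 level of clone 8. Gata3 (2.28), Gata2 (1.92), Krt7 (1.91) and Hand1 (1.01) were the others. Gata2 lies on chromosome 6, where 26.1% of genes were called higher. Wild-type replicate 1 had Hand1 at 35.5 and 23.1 TPM, against 13.1 to 35.4 TPM in clones 8 and 15, and Krt7 at 8.33 and 10.6 TPM, above the 5.69 and 4.81 TPM of clone 8. Its Gata3 level of 1.76 and 2.88 TPM was near the 2.31 to 2.94 TPM of clones 8 and 15. The defining transcription factors Cdx2, Eomes, Gata3 and Elf5 summed to 11.9 to 20.2 TPM in clones 8 and 15, 5.86 and 6.70 TPM in clone 11 and 1.14 to 8.67 TPM in wild type, and Cdx2 was below 1 TPM in all 6 ΔCdk8 libraries. Most of the sum in clones 8 and 15 was Eomes (7.22 to 14.1 TPM), which was not called (0.93). Elf5 overlapped between the sets, and Cdx2 had a log2 fold change of −0.54. A few cells with much transcript and many cells with little cannot be told apart in bulk RNA. In primitive endoderm 2 of 12 genes were called higher and 2 lower, beside 10.8% and 7.5% of all genes. The higher ones were the basement membrane collagens Col4a1 (1.26) and Col4a2 (1.78). The lower ones were Lama1 (7.85, 11.2, 6.57 and 9.44 TPM against 19.2 and 25.3 TPM in clone 11) and Sox7 (−2.85). Gata4, Gata6 and Sox17 summed to 2.11 to 6.99 TPM in clones 8 and 15 and 3.84 and 4.15 TPM in clone 11.

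Of 8 mesoderm and neuroectoderm genes tested, 2 were called lower by gene reads and 0 higher, beside 7.5% and 10.8% of all genes. These were Sox1 (−1.48) and En1 (−1.58), both below 1 TPM in all 6 libraries, whereas Tubb3, a tubulin gene of neurons, was at 51.7 to 111.9 TPM and was not called (−0.87). Of 7 fibroblast genes 3 were called higher, Acta2, Postn and S100a4, and Thy1 lower (−1.05), beside 10.8% and 7.5% of all genes. Postn and S100a4 lie on chromosome 3, where 28.6% of genes were called higher. Postn had 0 reads in both libraries of clone 11 and 7 and 4 reads in clone 8, so it passed the low-count filter only through clone 15. Acta2, smooth muscle actin, was at 64.3 and 57.4 TPM in clone 15, 2.90 and 3.18 TPM in clone 8 and 0.369 and 0.504 TPM in clone 11, so its log2 fold change of 5.88 rested mainly on clone 15. Postn, a matrix protein gene, was at 2.71 and 2.39 TPM in clone 15, 0.0946 and 0.0389 TPM in clone 8 and 0 in clone 11. Acta1 and Ankrd1, the latter a target of mechanical and YAP signalling, had the same order, with 13.2 and 12.2 and 5.30 and 4.13 TPM in clone 15. Col1a1, Col3a1, Dcn and Postn summed to 6.23 and 4.33 TPM in clone 15, to 0.822 and 0.943 TPM in clone 8 and to 0.726 and 1.08 TPM in clone 11, so that clone 8 was within the range of clone 11.

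Genes of the two-cell-like state, a rare and transient state of ESCs that resembles the embryo after its first division, had more reads in clones 8 and 15. Of 28 listed genes that could be matched, 24 passed the filter on low counts. In each library of clone 11, 14 of the 28 had 0 reads, so that many passed only through clones 8 and 15, and a count of calls over them carries no weight. The 28 genes together had 16.8 and 12.4 RPM in clone 8 and 31.8 and 31.1 in clone 15. In clone 11 they had 1.09 and 1.15 RPM, from 50 and 35 reads, and in wild type 0.571 to 2.69. The mean was 20.5 times higher in clones 8 and 15 than in clone 11. Their summed level was 14.5 to 44.2 TPM in clones 8 and 15. Zscan4f, a telomere-associated factor of this state, was at 2.86, 2.003, 7.82 and 6.70 TPM in clones 8 and 15 and 0.168 and 0.2501 TPM in clone 11. Zscan4, Usp17l, Tdpoz and Tcstv genes have near-identical copies among which reads may be split, and single members are therefore uncertain.

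Some of the largest changes on the other autosomes were in genes of no list. Bckdhb, a subunit of the complex that breaks down branched-chain amino acids, was at 60.1, 66.3, 50.5 and 62.8 TPM in clones 8 and 15, 0.0340 and 0.354 TPM in clone 11 and 40.9 to 72.4 TPM in wild type (5.22), so it was low in clone 11 alone. Inhbb, which encodes a subunit of activin and inhibin, was at 2.10 to 3.99 TPM in clones 8 and 15 and at 52.7 and 71.8 TPM in clone 11, against 0.572 to 2.75 TPM in wild type (−4.64), so it was high in clone 11 alone. Fst, the activin antagonist follistatin, was lower too (−4.63), at 0.04003 to 0.489 TPM and at 2.76 and 4.02 TPM in clone 11.

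Other genes with large changes were low in clones 8 and 15. Zfp365, a zinc finger gene, was at 0.230 to 0.903 TPM in clones 8 and 15, 9.96 and 15.9 TPM in clone 11 and 9.94 to 69.0 TPM in wild type (−4.92). Zfp750, a regulator of epidermal differentiation, was at 0 to 0.0413 TPM, 2.20 and 3.44 TPM and 1.54 to 18.4 TPM in the same order. Ntn1, the axon guidance cue netrin 1 (−4.70), R3hdml (−5.62) and Neurod1, a neurogenic factor (−4.78), had lower levels as well, below every wild-type library. For Ntn1 (18.8 and 22.75 TPM) and R3hdml (16.5 and 10.8 TPM) clone 11 was above every wild-type library of its condition, and for Neurod1 it was not. Wild-type libraries had 1.55 to 16.15 TPM of Ntn1 and 1.78 to 16.1 TPM of R3hdml. Nkx2-9 and Krt13 were at or near 0 in clones 8 and 15 and at 2.21 and 3.62 and at 5.23 and 4.10 TPM in clone 11. Wild-type libraries had 0.191 to 4.10 TPM of Nkx2-9 and 0 to 0.660 TPM of Krt13, so that Krt13 was high in clone 11 alone. Pagr1a was at 0 in both libraries of clone 11, but at 2.92 and 0.0298 TPM in the 2 libraries of clone 8, so its level varied within 1 clone.

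On the chromosomes with shifted levels single genes moved further than the chromosome. On chromosome 3, Slc44a3, a choline transporter-like gene, was at 5.49 to 10.5 TPM against 0.544 and 1.18 TPM in clone 11 (3.14), and Med12l, a subunit of the Mediator kinase module, at 5.39 to 9.39 TPM against 0.738 and 1.30 TPM (2.88). Csf1 (0.956 to 7.36 TPM against 0.237 and 0.185 TPM), Ccna1 (3.01) and Mcoln3 (2.99) were further genes that averaged 2 TPM or more in clones 8 and 15 and had large increases on this chromosome. Mcoln3 was at 1.58 and 1.93 TPM in clone 8 and at 6.87 and 6.16 TPM in clone 15, beside 0.344 to 2.32 TPM in wild type. Against its direction Ddit4l, an inhibitor of mTOR signalling, was at 0.568 to 1.46 TPM against 4.24 and 5.97 TPM (−2.68), and Pdgfc, a growth factor gene, changed by −2.09. On chromosome 6 Ccnd2, cyclin D2, was at 0.696 to 2.32 TPM against 18.3 and 12.3 TPM (−3.51), although the chromosome as a whole was lower in clone 11. Trh, the precursor of thyrotropin-releasing hormone, changed by −2.34. On chromosome 14, which was raised in all 3 clones, Gch1, the first enzyme of tetrahydrobiopterin synthesis, was higher (2.15) and Fgf17, an embryonic growth factor, was at 3.23 to 4.22 TPM against 49.7 and 31.9 TPM (−3.69). Wild-type libraries had 1.12 to 4.86 TPM of Pdgfc, 0.707 to 5.23 TPM of Ccnd2, 138 to 563 TPM of Trh and 0.462 to 6.08 TPM of Fgf17. For each of these genes clone 11 was above all wild-type libraries. For Ddit4l clones 8 and 15 were below all of them (5.145 to 25.96 TPM).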

How the data were processed

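Polyadenylated RNA of 12 libraries was sequenced with a stranded kit, and the authors aligned the reads to Ensembl GRCm38 in the CLC Genomics Workbench. The counts the authors deposited are unscaled reads on each gene, its exons and its introns, and total 22170087 to 60798578 per library, and the deposited TPM values are exon reads per exon length scaled per library. Groups, clones and replicate numbers came from the sample labels. The clones were divided by their Trp53 level, and members, gene lists and tests were chosen with earlier results of these data known.

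Fold changes came from total gene reads of the 6 ΔCdk8 libraries with induction as a covariate (R 4.3.3, edgeR 4.0.16, TMM scaling, low genes removed by filterByExpr at 10 reads, 15 in total). A gene was called when it changed by more than 2-fold and the TMM-scaled levels of both clone 11 libraries lay outside the range of the other 4. The induction difference was tested over 12 libraries with edgeR (quasi-likelihood, two-sided, p-values adjusted by Benjamini-Hochberg), and a standard error is the log2 fold change over the square root of F. The numbers in the sample titles pair the samples. A clone number marks the same line, and over 14661 genes deviations from the group means correlated by 0.862 to 0.915 within clone numbers and by 0.575 to 0.689 within wild-type numbers. Whether equal wild-type numbers mark 1 culture is not given in the sources used here, and p-values measure the spread between these samples. Chromosome medians used genes averaging 1 TPM or more and ratios of TPM + 0.01. Alternatives were DESeq2 1.42.0, other scalings, filters, folds, read classes and TPM scales, each condition alone, the replicate block and leaving out samples. Exon reads, the block on 6 libraries, with DESeq2 or with a clone left out, and the responses of each set were added after seeing the data. The steps were tested on simulated data. Named genes were the p53 network, called and most changed list members, and up to 12 genes per direction on other autosomes and 4 per direction on chromosomes 3, 6 and 14 averaging 2 TPM or more on the higher side. The promoter genes, Trp53 neighbours, Cdk8 and list members that were not called were chosen after their values were seen. Gene models without a name and some genes of this rule are left out. Python 3.11.15, numpy 2.4.6, pandas 2.3.3 and matplotlib 3.10.9 were used.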

Additional observations from a re-analysis of the deposited data

Results flagged for a closer look

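The change on induction differed between clones 8 and 15 and wild type for 2 p53 target genes, by the test of the difference itself with the replicate block. Ephx1, an epoxide hydrolase, differed by −1.98 (log2, replicate block, SE 0.25, with edgeR's adjusted p = 0.00955). It rose in wild-type cells by 2.16 (standard error 0.16), while the change in clones 8 and 15 was 0.18 (standard error 0.20). Ptp4a3, a phosphatase, had a difference of −1.46 (standard error 0.14, adjusted p = 0.00475), with 1.71 in wild type and 0.25 in clones 8 and 15. Without the block the adjusted p-values of the differences were 0.521 and 0.606. Over all genes the blocked test called 0.306% higher and 0.125% lower. Clone 11 had differences from wild type of −1.77 (adjusted p = 0.0847) and −0.88 (adjusted p = 0.101), and clones 8 and 15 were not shown to differ from clone 11.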

How the results depend on the processing

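Over 15298 genes, 1658 higher and 1148 lower calls became 1008 and 416 on the log2(TPM + 1) scale, 760 lower on the log2(TPM + 0.1) scale, and 2726 and 2323 at a 1.5-fold limit. Without clone 8 they were 1801 and 1445, and without clone 15 1777 and 1382. The other alternatives kept both counts within 1.5 times. For p53 targets 23 lower calls stayed within 1.5 times under each alternative. Higher calls rose from 0 to 1 with scaling off the shifted chromosomes, unique reads, exon reads, log2(TPM + 1), the uninduced or the induced libraries alone, or without either clone, to 3 on the log2(TPM + 0.1) scale and to 5 at 1.5-fold. The median of the targets (−1.22) was −0.88 and −0.98 on the 2 TPM scales, −0.93 in uninduced libraries alone and between −1.17 and −0.94 without clone 8 or clone 15. Chromosome medians moved by less than the wild-type spread under each alternative. Of 1772 values of 151 named genes under alternatives, 401 moved by more than the spread within clones 8 and 15, and 0 of the called genes reversed; causes were not tested.

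The induction difference between the clone sets had 0 calls in the 12 libraries, and 0 with the replicate block, also with DESeq2 or without clone 8 or 15. In the 6 ΔCdk8 libraries alone the replicate block gave 28 genes higher and 19 lower, from a fit with 1 residual degree of freedom. The comparison holds 1 clone against 2, wild-type replicates left out gave 0 calls as well, and the effect of depth was not tested.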

Other observations

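Among genes of the BCL2 family, which set the threshold for mitochondrial apoptosis, 2 of 12 were called higher in clones 8 and 15 and 0 lower, beside 10.8% and 7.5% of all genes, which is no result about the family. Bik, a BH3-only gene, was at 11.4, 12.7, 10.7 and 11.2 TPM in clones 8 and 15 and at 3.31 and 5.20 TPM in clone 11 (log2 fold change 1.25), and Bmf, another, changed by 1.16. The family median was 0.29. The p53 targets Bax, Bbc3 and Pmaip1 were counted with the p53 list.

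Germline genes had 5 of 19 members called higher and 0 lower, with a median of 0.55, beside 10.8% of all genes, 28.6% on chromosome 3 and 26.1% on chromosome 6. Sycp1, a protein of the synaptonemal complex, was at 20.5, 13.6, 23.6 and 20.2 TPM in clones 8 and 15 and 2.39 and 2.54 TPM in clone 11 (2.78). Sycp1 and Slc25a31 (1.69) lie on chromosome 3, Asz1 (2.70) and Tuba3a (1.30) on chromosome 6, and Taf7l (1.43) on the X chromosome. The median log2 fold changes of these chromosomes were 0.63, 0.54 and 0.15, and 14.3% of genes on the X chromosome were called higher. Whether the changes of these genes go with their chromosomes was not tested. Among 15 Notch pathway genes 2 were called higher, Hey1 on chromosome 3 (1.78) and Hes5 (2.97), and 2 lower, the ligand Jag1 (−1.39) and the receptor Notch3 (−1.27), shares near the 10.8% and 7.5% of all genes. Hes5 was at 0.938 TPM or less in every ΔCdk8 library, with 1 read in each library of clone 11. In the Mediator kinase module Med12l was the only one of 7 genes called.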
